A study of Mus musculus with 12 samples.

Results

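Described here are the transcripts of 3 type 2 cytokines, Il4, Il5 and Il13, and of 4 receptor chains that bind IL-4 or IL-13, namely Il4ra, Il13ra1, Il13ra2 and Il2rg. They were taken by gene symbol, and each symbol matched 1 of the 54532 Ensembl identifiers in the count table. All 7 passed the filter on low counts.

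Whole mouse lung was profiled by sequencing of mRNA captured on oligo(dT) beads, in 4 groups of 3 libraries. CKO_CRE and WT_CRE were Cc10-Cre;Rhoafl/fl mice and Cc10-Cre mice given a treatment labelled CRE, and CKO_PBS and WT_PBS were the same genotypes given PBS. All 4 groups thus carry the Cc10-Cre transgene, whose promoter is active in Clara (club) cells of the airway lining, so that other lung cells of the CKO mice would keep the small GTPase gene Rhoa. The labels do not spell out CRE, which is a treatment name here and not the recombinase, and they give no age, sex or strain and a single batch number. They number the replicates but do not say that each is a separate animal, so p-values measure the spread between these libraries.

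IL-4, IL-5 and IL-13 are the signature products of T helper 2 cells and group 2 innate lymphoid cells, and drive allergic inflammation of the lung. IL-4 signals through the IL-4 receptor alpha chain paired with the common gamma chain (Il2rg), and both IL-4 and IL-13 signal through the alpha chain paired with IL-13 receptor alpha 1. These receptors activate Janus kinases and the transcription factor STAT6. IL-13 receptor alpha 2 binds IL-13 tightly, has a short cytoplasmic tail and is known mainly as a decoy. IL-5 uses a separate receptor made of Il5ra and a shared beta chain.

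Library totals ran from 16250674 to 21559210 counts. The CKO_CRE libraries were spread widely along the first principal component of log2 CPM (counts scaled to library size by edgeR), which held 64.4% of the variance, with scores of 10.1, 82.6 and 31.2 for replicates 1, 2 and 3, against 71.6 to 84.7 in WT_CRE. Without CKO_CRE replicate 2, 28.5% of all tested genes were called between genotypes under CRE, 15.8% higher and 12.7% lower, so that many single calls depend on that library. Calls of the 7 transcripts, and counts of the gene lists, are therefore also given without it for that comparison. Rhoa stood at 465 to 544 CPM in CKO_CRE and 521 to 531 CPM in WT_CRE, and at 398 to 481 CPM in CKO_PBS and 471 to 488 CPM in WT_PBS, so whole lung did not separate the genotypes by this gene. The labelled tissue was checked with 8 lung epithelial markers, whose summed level was between 12900 and 23800 CPM in every library. Most of that sum was the surfactant gene Sftpc, at 8600 to 16300 CPM. The club cell gene Scgb1a1 was at 5.9 to 46.7 CPM, so the sum says little about the airway lining. Counts of Y-linked genes put 5 libraries as female and 7 as male, with none of the WT_PBS libraries female and replicates 2 and 3 of both CRE groups female. Of the 7 genes described here, 3 are X-linked.

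The 3 cytokine genes lie together on chromosome 11 (GRCm38). Il4 (ENSMUSG00000000869) occupies chr11:53602982-53618669 and Il13 (ENSMUSG00000020383) chr11:53631324-53634702, both on the minus strand and 12.7 kb apart. Il5 (ENSMUSG00000036117) lies on the plus strand at chr11:53720794-53725106, beyond Rad50, a DNA repair gene whose introns are known to carry regulatory elements of the cytokine locus. Il4ra (ENSMUSG00000030748) is at chr7:125552120-125579474 on the plus strand. The other receptor chains are X-linked, with Il13ra1 (ENSMUSG00000017057) at chrX:36112110-36171259 on the plus strand, and Il13ra2 (ENSMUSG00000031289) at chrX:147383476-147429192 and Il2rg (ENSMUSG00000031304) at chrX:101264378-101268255 on the minus strand. Il5 and Il4ra share exon bases with antisense genes on the opposite strand that held 0 to 2 counts per library, and Il2rg with a same-strand predicted gene that held 0 or 1. No other near-identical transcript was found for any of the 7 genes.

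The sequences just before the transcription starts of the induced cytokines and of both IL-13 binding chains are shown because Il13 and Il13ra2 moved furthest, Il4 and Il5 less, and Il13ra1 did not pass the test in any comparison. Each is the 250 bases before the RefSeq start on GRCm38.p6, read 5′ to 3′ on the strand of the gene, at chr11:53618666-53618915 for Il4, chr11:53720544-53720793 for Il5, chr11:53634703-53634952 for Il13, chrX:147429193-147429442 for Il13ra2 and chrX:36111858-36112107 for Il13ra1. Capitals mark matches on either strand to a GATA element (AGATAA or else AGATAG, and likewise TGATAA or else TGATAG), the core of an NFAT element (TGGAAA), a STAT element (TTCNNNGAA or TTCNNNNGAA) or a TATA box (TATAAA).
Il4: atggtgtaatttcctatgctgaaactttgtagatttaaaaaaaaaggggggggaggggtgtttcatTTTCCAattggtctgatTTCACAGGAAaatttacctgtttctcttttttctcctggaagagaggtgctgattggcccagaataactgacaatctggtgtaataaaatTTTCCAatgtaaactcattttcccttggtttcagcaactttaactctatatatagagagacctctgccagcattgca
Il5: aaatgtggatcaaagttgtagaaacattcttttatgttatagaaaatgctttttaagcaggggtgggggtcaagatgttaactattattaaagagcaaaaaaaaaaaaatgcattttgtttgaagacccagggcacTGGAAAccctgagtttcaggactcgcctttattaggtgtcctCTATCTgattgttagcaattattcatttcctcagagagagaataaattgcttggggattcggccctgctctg
Il13: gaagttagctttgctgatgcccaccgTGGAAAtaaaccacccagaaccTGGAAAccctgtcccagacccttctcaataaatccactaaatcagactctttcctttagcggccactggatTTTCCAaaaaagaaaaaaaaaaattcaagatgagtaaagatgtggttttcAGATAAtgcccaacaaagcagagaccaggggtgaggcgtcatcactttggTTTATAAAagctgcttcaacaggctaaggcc
Il13ra2: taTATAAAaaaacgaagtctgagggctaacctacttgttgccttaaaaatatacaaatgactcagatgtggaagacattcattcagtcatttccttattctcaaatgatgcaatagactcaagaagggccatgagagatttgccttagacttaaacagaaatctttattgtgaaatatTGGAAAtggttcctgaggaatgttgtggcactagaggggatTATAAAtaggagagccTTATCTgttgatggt
Il13ra1: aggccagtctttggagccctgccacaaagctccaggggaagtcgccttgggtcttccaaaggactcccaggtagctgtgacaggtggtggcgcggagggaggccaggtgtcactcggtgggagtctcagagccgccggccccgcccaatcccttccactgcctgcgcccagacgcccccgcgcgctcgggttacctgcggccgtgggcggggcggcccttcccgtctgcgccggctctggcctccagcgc

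In these windows Il13 held a GATA element that begins 81 bases before the start, 3 NFAT cores, and a TATA box whose letters overlap a second match on the other strand. Il5 held a GATA element 72 bases and an NFAT core 114 bases before the start. Il4 held 2 NFAT cores and the STAT match TTCACAGGAA, which begins 167 bases before the start. Il13ra2 held a GATA element 15 bases and a TATA box 31 bases before its start, with an NFAT core and a further TATA box upstream. Il2rg held 1 NFAT core, and the windows of Il4ra and Il13ra1 held none of these letters. Of all 32841 RefSeq windows of this length, 26.5% held a GATA match, 18.6% an NFAT core, 12.4% a STAT match and 12.4% a TATA box. A match describes the letters alone, not a bound site.

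Il13 had the largest change of the 3 cytokines. Counts were 46, 73 and 37 in CKO_CRE, 195, 299 and 189 in WT_CRE, 0, 4 and 0 in CKO_PBS and 2, 2 and 3 in WT_PBS. Scaled to library size, these were 2.76, 4.27 and 2.17 CPM in CKO_CRE, against 12.3, 16.3 and 10.1 CPM in WT_CRE. Every CRE library was above every PBS library, and every CKO_CRE library was below every WT_CRE library. The 0 counts of CKO_PBS replicates 1 and 3 allow levels of up to 0.155 and 0.144 CPM, the worth of 3 counts, and cover counting error only.

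Under CRE, Il13 rose in both genotypes. The log2 fold change against PBS was 5.43 ± 0.62 (SE) in CKO (edgeR adjusted p = 0.000145) and 6.63 ± 0.54 in WT (adjusted p = 8.58e-06). Because PBS counts were so few, ratios of summed counts are also given, with intervals that cover counting error and leave out the spread between libraries. There were 156 reads in CKO_CRE against 4 in CKO_PBS, all 4 in replicate 2, a ratio of 47.5 (exact 95% counting interval 18.2 to 176). There were 683 reads in WT_CRE against 7 in WT_PBS, a ratio of 105 (50.5 to 261). CKO_CRE lungs had 3.07 ± 1.08 CPM and WT_CRE lungs 12.9 ± 3.16 CPM (SD, n = 3 each), a 4.2-fold lower level in CKO_CRE (log2 fold change -2.07 ± 0.38, adjusted p = 0.028).

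That difference in Il13 kept its direction in every alternative, at -2.45 to -1.86, but not its call. The adjusted p was 0.0549, 0.0544 and 0.0528 without WT_PBS replicate 1, 2 or 3, and 0.11, 0.0924 and 0.0632 without WT_CRE replicate 1, 2 or 3. It was 0.0516 without CKO_CRE replicate 1, 0.104 without CKO_CRE replicate 3, and 0.00125 without CKO_CRE replicate 2, where the log2 fold change was -2.38. In bulk tissue, fewer cells of a type and less RNA per cell cannot be told apart. Beside these values, the summed level of 9 markers of innate type 2 lymphocytes and T helper 2 cells was 55.5 to 70.1 CPM in CKO_CRE and 96.8 to 108 CPM in WT_CRE, without overlap, against 31.6 to 48.5 CPM in CKO_PBS and 31.2 to 36.4 CPM in WT_PBS. Of the 9 markers, 1 was called between genotypes under CRE, with a median log2 fold change of -0.51. That was the IL-33 receptor gene Il1rl1, which averaged 15.4 CPM in CKO_CRE and 38.2 CPM in WT_CRE and so weighs much in the sum. Hpgds, at 9.14 and 8.59 CPM, and Ptgdr2, at 0.693 and 0.524 CPM, were not lower in CKO_CRE. The part of these markers in the Il13 difference was not tested.

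Il5, the growth and survival factor of eosinophils, was much scarcer. Counts were 15, 9 and 3 in CKO_CRE, 28, 12 and 20 in WT_CRE, 1 in each CKO_PBS library, and 1, 2 and 1 in WT_PBS. The CRE and PBS libraries did not overlap in either genotype, while the CKO_CRE and WT_CRE libraries did. Il5 rose under CRE by 3.29 ± 0.76 on the log2 scale in CKO (adjusted p = 0.00598) and by 3.91 ± 0.68 in WT (adjusted p = 0.000535). From summed counts, 27 reads in CKO_CRE against 3 in CKO_PBS gave a ratio of 11 (exact 95% counting interval 3.37 to 56.4), and 60 reads in WT_CRE against 4 in WT_PBS a ratio of 16.1 (5.96 to 60.9). With limma-voom the CKO rise was 1.81 and lost its call (adjusted p = 0.0964). Under CRE, levels were 0.535 ± 0.362 CPM in CKO and 1.16 ± 0.561 CPM in WT (SD, n = 3 each), and this difference did not pass the test (log2 fold change -1.11 ± 0.51, adjusted p = 0.273).

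Il4, the cytokine that promotes T helper 2 differentiation and IgE switching, differed from its neighbours in being readily detected in PBS libraries and changing little. Levels were 2.28, 2.05 and 1.41 CPM in CKO_CRE, 4.04, 4.92 and 2.83 CPM in WT_CRE, 1.65, 1.15 and 2.31 CPM in CKO_PBS, and 1.57, 2.01 and 2.77 CPM in WT_PBS. Only the WT_CRE libraries stood above the other groups, their lowest just above the highest WT_PBS library. In WT, Il4 rose under CRE by 0.90 ± 0.32 on the log2 scale (adjusted p = 0.033), and in CKO the log2 fold change was 0.17 ± 0.34 (adjusted p = 0.721). The WT call was lost without WT_PBS replicate 1 or 2 (adjusted p = 0.123 and 0.0883) and without WT_CRE replicate 1 or 2 (adjusted p = 0.0746 and 0.129). Every CKO_CRE library lay below every WT_CRE library, with a log2 fold change of -1.04 ± 0.33 that did not pass the test (adjusted p = 0.149). Mast cells and basophils are further sources of IL-4. The sum of their markers is mostly Kit, which other cells also express, and the 9 others summed to 6.61, 15.8 and 8.82 CPM in CKO_CRE, 19.7, 16.6 and 12.3 CPM in WT_CRE, 5.13 to 7.96 CPM in CKO_PBS and 7.07 to 8.24 CPM in WT_PBS. The mast cell protease Mcpt1 was at 0.0601, 1.34 and 0.353 CPM in CKO_CRE and 7.44, 3.22 and 2.57 CPM in WT_CRE. It was at most 0.185 CPM in CKO_PBS and at 0 in every WT_PBS library. Other markers of the list did not follow it, with Cpa3 averaging 2.74 CPM in CKO_CRE and 2.19 CPM in WT_CRE, and Tpsb2 0.999 and 0.992 CPM. By edgeR, 0 of the 8 tested markers were called between genotypes under CRE, with a median log2 fold change of -0.08. Their part in the Il4 level was not tested.

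**Figure D1:**
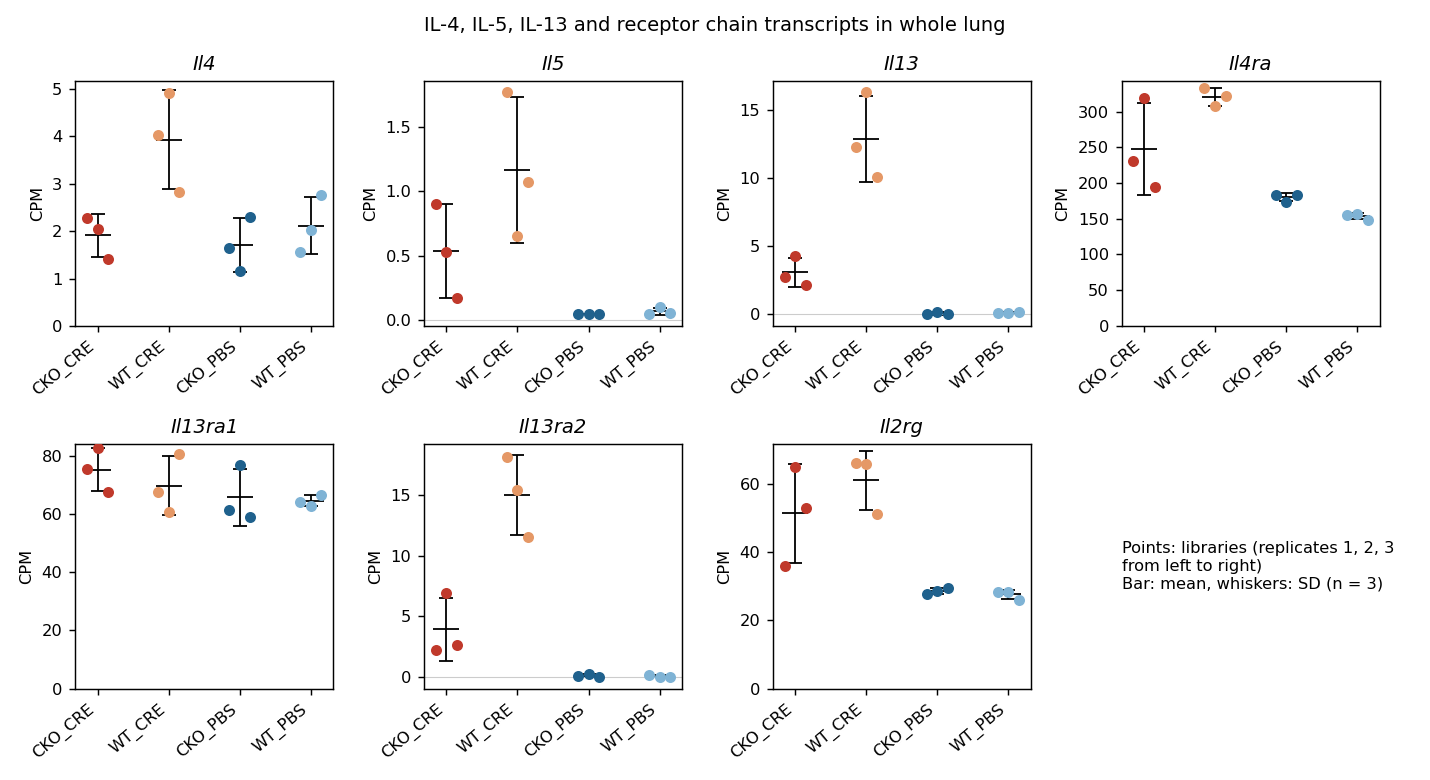
Levels of the 7 transcripts in CPM (y axis, linear, 1 panel per gene) in each library of the 4 groups, with points for replicates 1, 2 and 3 from left to right and the mean ± SD (n = 3). Il13 and Il13ra2 are at or near 0 in PBS libraries and higher in WT_CRE than in CKO_CRE, while the groups overlap for Il13ra1.

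Il4ra, the alpha chain common to both IL-4 receptors, had the highest level per kilobase of exon of the 7 transcripts. Levels were 230.1, 319.5 and 194 CPM in CKO_CRE, 333, 308 and 322 CPM in WT_CRE, 183.5, 174 and 183 CPM in CKO_PBS, and 155, 156 and 149 CPM in WT_PBS. WT_CRE libraries were tightly grouped and CKO_CRE libraries were not, with replicate 2 inside the WT_CRE range and replicates 1 and 3 below it. The CRE rise was 0.46 ± 0.14 on the log2 scale in CKO (adjusted p = 0.0232) and 1.07 ± 0.14 in WT (adjusted p = 0.000118). The CKO call was lost without CKO_PBS replicate 1, 2 or 3 (adjusted p = 0.053, 0.0665 and 0.0604), when only the 2 groups compared were fitted (0.105), and with limma-voom, where the change was 0.15 (0.141). All CKO_PBS libraries were above all WT_PBS libraries, at 180 ± 5.53 CPM and 153 ± 4.09 CPM (SD, n = 3 each), a log2 fold change of 0.23 ± 0.14 that was not called (adjusted p = 1).

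Between the genotypes under CRE, Il4ra did not pass the test (log2 fold change -0.37 ± 0.14, adjusted p = 0.205). Without CKO_CRE replicate 2 it did, at -0.59 (adjusted p = 0.000519). Of the 7 transcripts Il4ra had the lowest unadjusted p for the interaction of genotype and CRE, 0.011, with a log2 value of -0.60 ± 0.20 that was not called (adjusted p = 0.402). It was called without CKO_CRE replicate 2, at -0.83 (adjusted p = 0.00132), and with limma-voom, at -0.94 (adjusted p = 0.000691).

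Il2rg, the gamma chain that also serves the receptors of IL-2, IL-7, IL-9, IL-15 and IL-21, had a similar course. Levels were 36.1, 65 and 53 CPM in CKO_CRE, 66.1, 65.9 and 51.1 CPM in WT_CRE, 27.7, 28.5 and 29.6 CPM in CKO_PBS, and 28.4, 28.4 and 26.1 CPM in WT_PBS. Each CRE group was above its PBS group without overlap, and CKO_CRE replicate 1 was the lowest of the CRE libraries. Il2rg rose by 0.84 ± 0.17 on the log2 scale in CKO (adjusted p = 0.00328) and by 1.14 ± 0.17 in WT (adjusted p = 0.000245). The genotypes did not differ past the test under CRE (log2 fold change -0.25 ± 0.17, adjusted p = 0.44). They did without CKO_CRE replicate 2 (-0.45, adjusted p = 0.0403) and with limma-voom (-0.33, adjusted p = 0.0217). The summed level of 8 T cell markers, which mark the lymphocytes that carry this chain, was 78.3 to 169 CPM in CKO_CRE and 191 to 217 CPM in WT_CRE. It was lowest within CKO_CRE in the same replicate 1. The PBS sums were 55.8 to 113 CPM in CKO_PBS and 59.2 to 75.2 CPM in WT_PBS. By edgeR, 0 of the 8 markers were called between genotypes under CRE, with a median log2 fold change of -0.56. Within CKO_CRE, replicate 1 was also lowest for some other cell types, but not for all. The 6 B and plasma cell markers summed to 155, 630 and 477 CPM in CKO_CRE replicates 1, 2 and 3. The 7 macrophage markers other than Chil3 summed to 1270, 2180 and 1500 CPM, while with Chil3 the sums were 10300, 12100 and 9310 CPM. Neutrophil markers summed to 233, 408 and 136 CPM and fibroblast markers to 6900, 6750 and 6140 CPM, lowest in replicate 3. The part of these markers in the Il2rg level was not tested.

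Il13ra1, the chain that joins Il4ra in the IL-13 receptor, was not called in any comparison. Levels were 75.4 ± 7.54 CPM in CKO_CRE, 69.8 ± 10.1 CPM in WT_CRE, 65.8 ± 9.87 CPM in CKO_PBS and 64.7 ± 1.93 CPM in WT_PBS (SD, n = 3 each). The 4 groups overlapped. The log2 fold change under CRE was 0.20 ± 0.13 in CKO (adjusted p = 0.233) and 0.11 ± 0.13 in WT (adjusted p = 0.47), and under CRE the genotypes differed by 0.11 ± 0.13 (adjusted p = 0.644).

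Il13ra2, the decoy chain, behaved differently from the signalling chain. Counts were 37, 118 and 45 in CKO_CRE, 287, 282 and 216 in WT_CRE, 1, 6 and 0 in CKO_PBS, and 3, 0 and 0 in WT_PBS. These correspond to 2.22, 6.9 and 2.65 CPM in CKO_CRE and 18.1, 15.4 and 11.5 CPM in WT_CRE, with every CKO_CRE library below every WT_CRE library. Libraries with 0 counts allow up to 0.144 CPM in CKO_PBS replicate 3 and up to 0.151 and 0.177 CPM in WT_PBS replicates 2 and 3.

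Il13ra2 rose under CRE by 5.04 ± 0.75 on the log2 scale in CKO (adjusted p = 0.000565) and by 7.98 ± 0.81 in WT (adjusted p = 2.28e-05). The summed counts of 200 in CKO_CRE against 7 in CKO_PBS gave a ratio of 34.8 (exact 95% counting interval 16.6 to 87.7), and 785 in WT_CRE against 3 in WT_PBS a ratio of 280 (95.6 to 1360). CKO_CRE lungs had 3.92 ± 2.58 CPM and WT_CRE lungs 15 ± 3.29 CPM (SD, n = 3 each), a log2 fold change of -1.93 ± 0.49 that missed the threshold (adjusted p = 0.0843). It passed without CKO_CRE replicate 2 (-2.62, adjusted p = 0.00162), with DESeq2 (-1.94, adjusted p = 0.00309) and with no filter on low counts (-1.92, adjusted p = 0.00433). Macrophages and fibroblasts are 2 cell types in which this chain is known, and their markers moved with CRE too. Of the macrophage markers, Chil3 made up most of the sum and is itself a listed IL-13 target. The 7 others, of which Mrc1 is also a listed target, summed to 1270, 2180 and 1500 CPM in CKO_CRE and 2140, 2050 and 1930 CPM in WT_CRE. Replicates 1 and 3 of CKO_CRE were thus the low ones. The PBS sums were 453 to 550 CPM in CKO_PBS and 425 to 526 CPM in WT_PBS. Single markers differed. In CKO_CRE and WT_CRE, Adgre1 averaged 102 and 88.3 CPM, Marco 14.3 and 2.88 CPM, and Csf1r 303 and 306 CPM, while Mrc1, Cd68, C1qa and C1qb averaged lower in CKO_CRE. By edgeR, 0 of the 8 macrophage markers were called between genotypes under CRE, with a median log2 fold change of -0.20. The 6 fibroblast markers summed to 6140 to 6900 CPM in CKO_CRE and 8730 to 9480 CPM in WT_CRE, most of it from the collagens Col1a1, Col1a2 and Col3a1. Of the 6, 2 were called lower between genotypes under CRE, with a median log2 fold change of -0.18. The 3 others, Pdgfra, Dcn and Lum, summed to 274 to 423 CPM in CKO_CRE and 268 to 321 CPM in WT_CRE, which overlap, and to 576 to 656 CPM in CKO_PBS and 611 to 624 CPM in WT_PBS. Their part in the Il13ra2 difference was not tested.

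**Figure D2:**
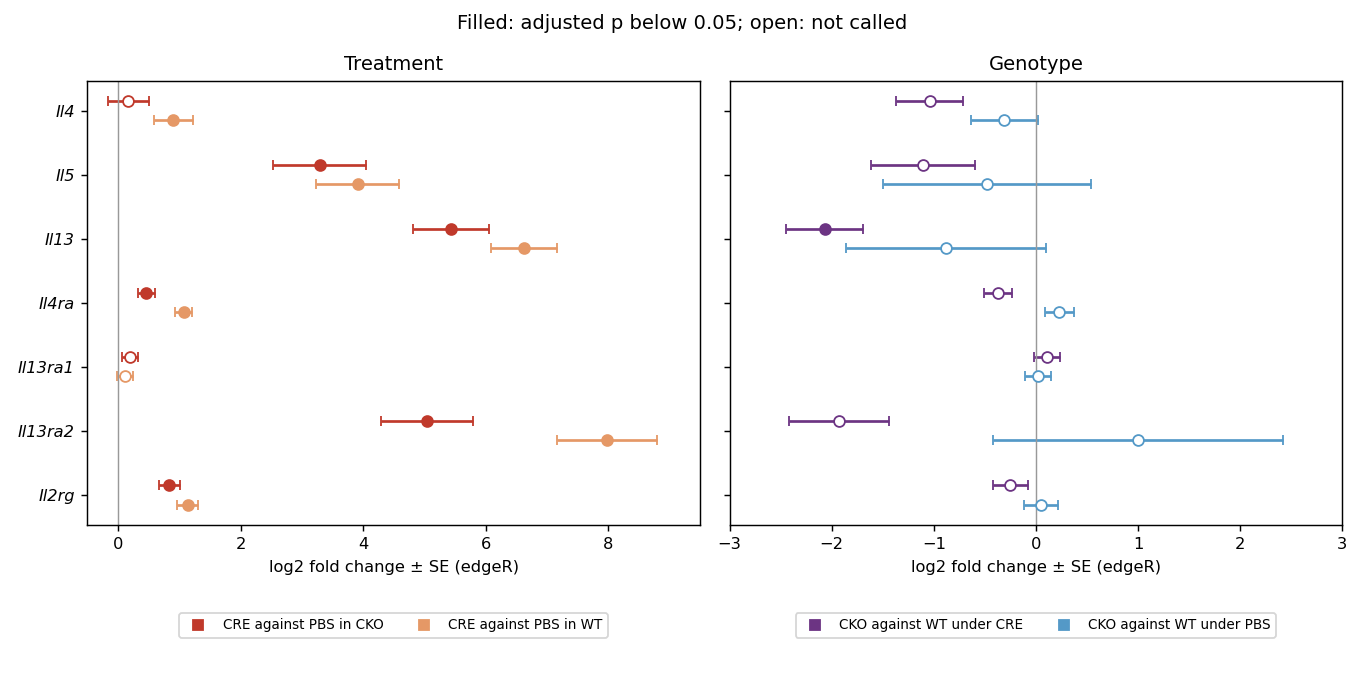
Log2 fold changes (x axis, edgeR, ± SE) of the 7 transcripts, for CRE against PBS in CKO and in WT on the left, and for CKO against WT under CRE and under PBS on the right. Filled points have an adjusted p below 0.05, and on the right Il13 under CRE, at -2.07, is the filled point.

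In all, 5 of the 7 transcripts rose under CRE in CKO, and 6 of 7 in WT, the extra gene being Il4. Over all 17473 tested genes, 20.6% were higher in CKO and 28.6% in WT, so a call is common in these contrasts. The libraries did not overlap for the same counts of members, 5 higher in CKO against 24.3% of all tested genes and 6 higher in WT against 34.4%. The median log2 fold change of the 7 was 0.84 in CKO and 1.14 in WT, and that of all tested genes 0.00 and 0.01. In CKO the count was 3 with limma-voom, with only the groups compared, and at a minimum of 2-fold.

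Between genotypes under CRE, Il13 was the 1 called member of 7, and 0.366% of all tested genes were called lower. The libraries of 3 members, Il4, Il13 and Il13ra2, did not overlap, all lower in CKO_CRE, as did those of 7.69% of tested genes. The members' median log2 fold change was -1.04, against 0.01 over all tested genes. The count of called members depended on single libraries. It was 4 without CKO_CRE replicate 2, where 12.7% of all tested genes were lower. Those were Il13, Il4ra, Il13ra2 and Il2rg, while Il4, Il5 and Il13ra1 were not called there. The count was 0 without any single WT_PBS or WT_CRE library or without CKO_CRE replicate 1 or 3.

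Under PBS, 0 of 7 members were called by edgeR, DESeq2 or limma-voom, and 0 had an unadjusted p below 0.05, against 0.109% of all tested genes called. Only Il4ra, above, had libraries that did not overlap, where 7.65% of tested genes did so in this direction. For the interaction of genotype and CRE, 0 of 7 were called by edgeR, with 0.0458% of all tested genes called, 1 had an unadjusted p below 0.05, and DESeq2 called 0 and limma-voom 1, in both cases Il4ra. The log2 values of Il13 and Il13ra2 in that test were -1.19 ± 1.23 (adjusted p = 0.715) and -2.94 ± 1.54 (adjusted p = 0.522), with large errors from the few PBS reads. Without CKO_PBS replicate 2, which holds all 4 Il13 reads of its group, the Il13 value turned to 2.19 (adjusted p = 0.713), and that of Il13ra2 ran from -6.07 to -1.02 with 1 library left out. A difference of the CRE response between genotypes was thus not shown for either gene.

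Levels of different genes were compared as CPM per kilobase of exon. In CKO_CRE the order was Il4ra 41.3, Il2rg 21.5, Il13ra1 20.3, Il13 2.55, Il13ra2 1.72, Il4 1.56 and Il5 0.348 CPM per kb. In WT_CRE it was Il4ra 53.5, Il2rg 25.6, Il13ra1 18.8, Il13 10.7, Il13ra2 6.59, Il4 3.2 and Il5 0.757 CPM per kb. The neighbours Il2rg and Il13ra1 overlapped in both CRE groups, as did Il13, Il13ra2 and Il4 in CKO_CRE. In PBS libraries the cytokine order was different, with Il4 at 1.39 in CKO_PBS and 1.73 in WT_PBS, against 0.0511 and 0.105 for Il13 and 0.0316 and 0.0456 for Il5, all in CPM per kb. The annotated exons of Il4 sum to 1227 bases while its longest coding transcript has 605, and on that length its level would be 3.16 CPM per kb in CKO_CRE and 6.5 in WT_CRE, which places it above Il13 in CKO_CRE.

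The IL-13 binding chains were also compared within each library, where scaling cancels. Il13ra2 amounted to 4.85%, 13.6% and 6.42% of Il13ra1 per kilobase in the CKO_CRE libraries, and to 43.5%, 41.2% and 23.3% in the WT_CRE libraries. In the PBS libraries it was between 0.0663% and 0.634% in CKO_PBS and between 0.0651% and 0.447% in WT_PBS, with 0.5 added to each count. Il13ra2 had 0 counts in CKO_PBS replicate 3 and in WT_PBS replicates 2 and 3. The ratios of those libraries are set by the added 0.5, and the PBS mean depends on it in part. The CRE and PBS libraries were far apart, and the genotypes under CRE did not overlap, as was already so for Il13ra2 alone. The log2 ratio averaged -2.63 ± 1.34 in CRE and -9.27 ± 1.48 in PBS libraries (SD, n = 6 each), a difference of 6.64 with an exact two-sided permutation p of 0.005, the smallest that 400 regroupings within genotype can give. Under CRE it averaged -3.74 ± 0.77 in CKO and -1.53 ± 0.50 in WT (SD, n = 3 each), a difference of -2.21 with an exact two-sided permutation p of 0.1, the smallest that 3 against 3 libraries can give.

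The ratio of Il13 to Il4 per kilobase, for neighbouring genes often made by the same lymphocytes, was 1.23, 2.11 and 1.56 in the CKO_CRE libraries and 3.09, 3.37 and 3.61 in the WT_CRE libraries. No CKO_CRE library reached the lowest WT_CRE library. The log2 ratio averaged 0.67 ± 0.39 in CKO_CRE and 1.74 ± 0.11 in WT_CRE (SD, n = 3 each), a difference of -1.07, and the exact two-sided permutation p was 0.1, again the smallest possible. PBS libraries, with 0 to 4 Il13 reads, were not used for this comparison.

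**Figure D3:**
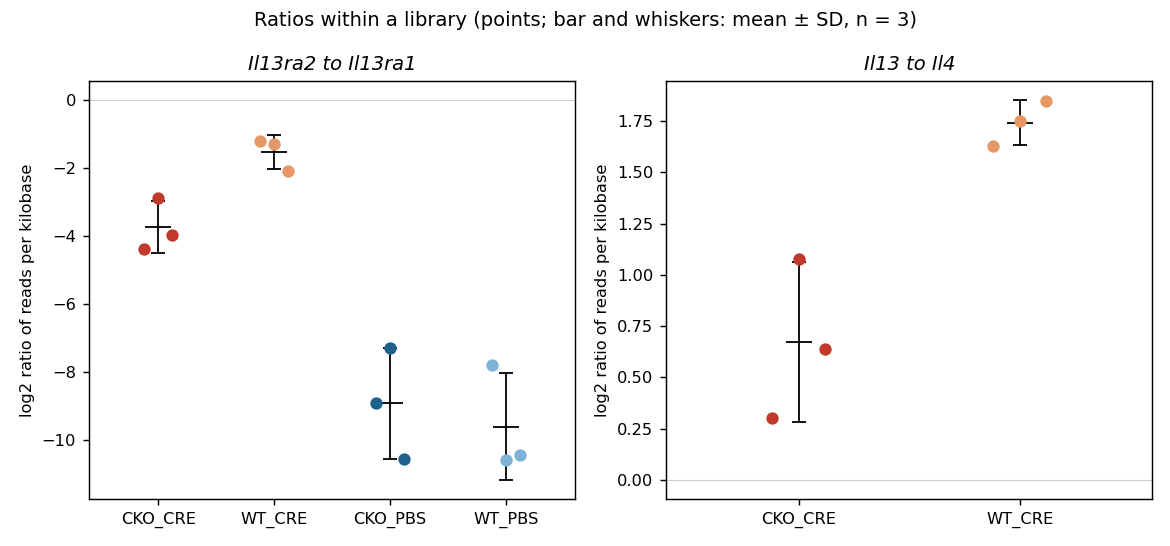
Log2 ratios within each library of reads per kilobase, for Il13ra2 to Il13ra1 in the 4 groups (left) and for Il13 to Il4 in the CRE groups (right), as points with the mean ± SD (n = 3). Both ratios are lower in every CKO_CRE library than in every WT_CRE library, with differences of -2.21 and -1.07.

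The cytokine genes and the genes around them did not change alike. Within 500 kb on each side of the Il13 start, 22 genes were tested, the cytokines included. Under CRE, 5 were called higher and 4 lower in CKO, against 20.6% and 18.5% of all tested genes. In WT, 6 were higher and 7 lower, against 28.6% and 28.4%. Of 8 listed and tested neighbours, 1 rose and 3 fell in each genotype, with median log2 fold changes of -0.14 in CKO and -0.12 in WT. Rad50, which lies between Il13 and Il5 at 14.8 kb from Il13 and 13.5 kb from Il5, fell by 0.62 on the log2 scale in CKO (adjusted p = 0.00216) and by 0.83 in WT (adjusted p = 0.000167). Kif3a, a motor protein gene on the other side of Il4, had log2 fold changes of -0.21 in CKO and -0.15 in WT and was not called. Irf1, an interferon response factor, was at 0.14 in CKO and 0.17 in WT, also not called. Slc22a5, a carnitine transporter, fell in both genotypes, and Pdlim4, an actin-binding protein gene 434.3 kb from the Il13 start, rose by 1.61 in CKO (adjusted p = 0.000504) and by 2.34 in WT (adjusted p = 2.51e-05). Slc22a5 shares a near-identical stretch with its neighbour Slc22a21, so its value is uncertain. Of the 22 genes, Il13 alone was called between the genotypes under CRE, against 0.916% of all tested genes. Without CKO_CRE replicate 2, where 28.5% of all tested genes were called, Pdlim4 was lower (-0.62, adjusted p = 0.03) and Slc22a5 higher (0.32, 0.0423) in CKO_CRE.

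**Figure D4:**
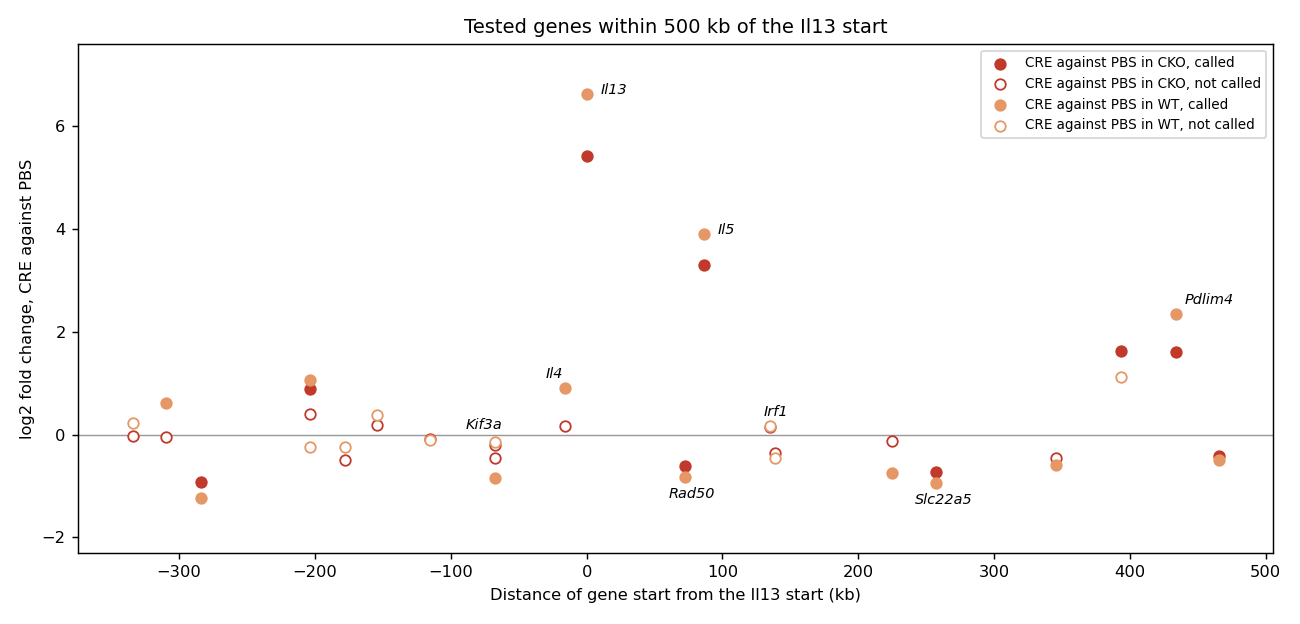
Log2 fold change under CRE against PBS (y axis, edgeR) of the 22 tested genes within 500 kb of the Il13 start, by the distance of their start from it in kb (x axis), in CKO and in WT. Filled points have an adjusted p below 0.05. Il13 and Il5 stand far above Rad50 between them, which is below 0.

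A list of 4 genes held the IL-5 specific chain Il5ra, the beta chains Csf2rb and Csf2rb2, and Csf2ra. Of these, 3 rose under CRE in CKO (median log2 fold change of the 4, 1.38), Il5ra being the 1 not called. In WT all 4 rose (median 1.72). Among all tested genes, 20.6% rose in CKO and 28.6% in WT. Il5ra averaged 2.05 ± 1.03 CPM in WT_CRE and 0.496 ± 0.18 CPM in WT_PBS, a log2 rise of 2.04 ± 0.51 (adjusted p = 0.00472). It averaged 1.51 ± 0.576 CPM in CKO_CRE and 0.624 ± 0.328 CPM in CKO_PBS, a log2 fold change of 1.28 that was not called (edgeR adjusted p = 0.0589). Csf2ra, the GM-CSF receptor alpha chain, rose by 1.47 ± 0.21 on the log2 scale in CKO (adjusted p = 0.000402) and by 1.59 ± 0.21 in WT (adjusted p = 9.52e-05). The beta chains Csf2rb and Csf2rb2 are near-identical copies that may share reads, so their separate values are uncertain. By edgeR, none of the 4 was called between genotypes under CRE, with or without CKO_CRE replicate 2, or under PBS. Limma-voom, which called 43.8% of all tested genes between genotypes under CRE, called Csf2rb2 lower.

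Of 6 receptor chains that pair with Il2rg, 3 rose in CKO (median log2 fold change 0.92) and 4 in WT (median 1.22). The shares of all tested genes that rose were 20.6% in CKO and 28.6% in WT. Il21r rose by 1.86 ± 0.30 on the log2 scale in CKO (adjusted p = 0.000963) and by 2.60 ± 0.31 in WT (adjusted p = 5.71e-05). Il9r rose by 1.43 ± 0.42 in CKO (adjusted p = 0.0179) and by 2.32 ± 0.42 in WT (adjusted p = 0.000651), and Il2ra, a marker of activated T cells, by 1.43 ± 0.25 (adjusted p = 0.00125) and 1.56 ± 0.25 (adjusted p = 0.000306). The CKO rise of Il9r lost its call without CKO_PBS replicate 2 or 3 (adjusted p = 0.0589 and 0.07), without CKO_CRE replicate 2 (0.0763), with only the 2 groups fitted (0.0779) and with sex as a covariate (0.0521). By edgeR, none of the 6 was called between genotypes under CRE or under PBS. Without CKO_CRE replicate 2, 3 of the 6 were lower in CKO_CRE than in WT_CRE, against 12.7% of all tested genes. Among them were Il9r (-1.51, adjusted p = 0.0134) and Il21r (-0.96, 0.011). Limma-voom also called 3 lower, against 20.8% of all tested genes.

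Some other pathway genes fell under CRE, as did 18.5% of all tested genes in CKO and 28.4% in WT, while 20.6% and 28.6% rose. Of 11 genes of proximal signalling, 6 rose and 2 fell under CRE in CKO (median log2 fold change 0.42), and 6 rose and 3 fell in WT (median 0.70). The feedback inhibitor Socs1 was the furthest up, at 27.1 ± 9.47 CPM in CKO_CRE against 4.42 ± 0.849 CPM in CKO_PBS, and at 48 ± 15.5 CPM in WT_CRE against 4.82 ± 1.12 CPM in WT_PBS (SD, n = 3 each). Its log2 rise was 2.61 ± 0.31 in CKO (adjusted p = 0.000174) and 3.31 ± 0.31 in WT (adjusted p = 1.61e-05). Jak3, the kinase bound to Il2rg, rose by 0.96 ± 0.13 in CKO (adjusted p = 0.00033). Irs1 and Irs2, adaptors that dock on the IL-4 receptor alpha chain, both fell in both genotypes, Irs1 by 1.11 ± 0.36 on the log2 scale in CKO (adjusted p = 0.0283) and by 1.92 ± 0.37 in WT (adjusted p = 0.00105). The CKO fall of Irs1 lost its call without CKO_PBS replicate 1 or 3 (adjusted p = 0.0757 and 0.0701), with only the 2 groups fitted (0.106) and with sex as a covariate (0.0515), and that of Irs2 without CKO_PBS replicate 2 (0.0561). By edgeR, none of the 11 was called between genotypes under CRE or under PBS. Without CKO_CRE replicate 2, 2 were higher and 3 lower in CKO_CRE, against 15.8% and 12.7% of all tested genes. Irs1 was at 1.06 (adjusted p = 0.000904), Socs1 at -1.12 (0.00904) and Jak3 at -0.33 (0.0494). In that setting the CRE response of Irs1 also differed between genotypes, by 1.22 (0.00481). Limma-voom called 4 higher and 4 lower under CRE, against 23% and 20.8% of all tested genes.

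Of 13 regulators of the cytokine genes in type 2 lymphocytes, 7 rose and 3 fell in CKO (median log2 fold change 0.41), against 20.6% and 18.5% of all tested genes. In WT, 9 rose and 2 fell (median 0.92), against 28.6% and 28.4%. Irf4, a transcription factor of T helper 2 cells among others, rose by 1.53 ± 0.16 on the log2 scale in CKO (adjusted p = 0.000101) and by 2.03 ± 0.16 in WT (adjusted p = 7.9e-06). Rora, a factor required for innate type 2 lymphocytes and expressed in many lung cells, fell by 1.20 ± 0.21 in CKO (adjusted p = 0.0014) and by 1.48 ± 0.21 in WT (adjusted p = 0.000176). Gata3, the master regulator of type 2 lymphocytes, was chosen here after its values were seen and stood at 10.7, 10.1 and 13 CPM in CKO_CRE, 17, 15.5 and 15.5 CPM in WT_CRE, and 6.2 to 7.35 CPM in the PBS libraries. Its difference between genotypes under CRE was not called (log2 fold change -0.51 ± 0.12, adjusted p = 0.0749).

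Under CRE, 3 of these 13 regulators were lower in CKO than in WT, against 0.366% of all tested genes. The other 10 were not called (median log2 fold change of the 13, -0.35). Il1rl1, the IL-33 receptor of innate type 2 lymphocytes, T helper 2 cells and mast cells, stood at 13.3, 19.3 and 13.6 CPM in CKO_CRE and at 39.4, 43.7 and 31.7 CPM in WT_CRE, with no overlap. Its log2 fold change was -1.31 ± 0.25 (adjusted p = 0.0322), and the call was lost without any single WT_PBS library (adjusted p = 0.0595, 0.0544 and 0.0565 for replicates 1, 2 and 3) or WT_CRE library (0.138, 0.0948 and 0.0625), without CKO_CRE replicate 1 or 3 (0.0754 and 0.133), and with only the 2 groups fitted (0.0857). Il1rl1 is also among the 9 type 2 lymphocyte markers summed above. Maf, chosen here after its values were seen, binds the Il4 promoter and is also abundant in macrophages. It was 63, 60.7 and 69.6 CPM in CKO_CRE and 85.7, 91.3 and 97.1 CPM in WT_CRE (log2 fold change -0.50 ± 0.08, adjusted p = 0.018). Rbpj, the nuclear effector of Notch, had the largest of these differences, at 42.7, 41.4 and 47.2 CPM in CKO_CRE and 136, 128 and 140 CPM in WT_CRE (log2 fold change -1.62 ± 0.10, adjusted p = 9.44e-06). Rbpj has a near-identical pseudogene, Rbpj-ps3, so its value is uncertain. Only Rbpj remained called without any single WT_CRE library and with only the 2 groups fitted. Without CKO_CRE replicate 2, 6 of the 13 were lower and 1 higher in CKO_CRE, against 12.7% and 15.8% of all tested genes. The additional genes included Irf4 (-0.62, adjusted p = 0.00835) and Rora (0.61, 0.00926). In that setting the CRE response of Il1rl1 differed between genotypes by -1.43 (0.0189). Limma-voom called 8 lower and 2 higher, against 20.8% and 23% of all tested genes. Under PBS none of the 13 was called by edgeR, and DESeq2 and limma-voom each called Rbpj lower.

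Of 8 tested genes on a list of other secreted products, 6 rose under CRE in CKO and 6 in WT, against 20.6% and 28.6% of all tested genes. The 8 were Il10, Il6, Il21, Areg, Csf2, Lif, Ifng and Il17a, which are not products of type 2 lymphocytes alone. Their median log2 fold changes were 2.06 and 2.15. Il10, an inhibitory cytokine, averaged 1.71 ± 0.904 CPM in CKO_CRE and 0.0154 ± 0.0267 CPM in CKO_PBS, and 2.49 ± 0.402 CPM in WT_CRE and 0.0758 ± 0.0911 CPM in WT_PBS (SD, n = 3 each). Il21 rose by 3.70 ± 0.74 on the log2 scale in CKO (adjusted p = 0.00291) and by 5.65 ± 0.86 in WT (adjusted p = 0.000233). Il17a was also among the genes that rose, by 4.13 ± 1.14 in CKO (adjusted p = 0.0138) and by 2.65 in WT (adjusted p = 0.032). The listed Il9, Il3 and Il31 had 0 counts in every library and were not tested. By edgeR, none of the 8 was called between genotypes under CRE, with or without CKO_CRE replicate 2, or under PBS. Limma-voom called 2 lower under CRE, against 20.8% of all tested genes.

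Of 20 tested genes known to be induced by IL-4 or IL-13, 18 rose under CRE in each genotype, against 20.6% of all tested genes in CKO and 28.6% in WT. Their median log2 fold changes were 4.37 in CKO and 4.82 in WT. Chil4, a chitinase-like protein, averaged 304 ± 64.3 CPM in CKO_CRE and 0.267 ± 0.338 CPM in CKO_PBS, and 960 ± 294 CPM in WT_CRE and 0.592 ± 0.527 CPM in WT_PBS (SD, n = 3 each). Arg1, the arginase of alternatively activated macrophages, was 140, 1190 and 240 CPM in CKO_CRE and 1340, 1640 and 1040 CPM in WT_CRE, so that CKO_CRE replicate 2 lay within the WT_CRE range. Between genotypes under CRE, 1 of the 20 was called, against 0.916% of all tested genes. Ccl24, an eosinophil-attracting chemokine, was 67.8, 217 and 66.4 CPM in CKO_CRE and 671, 612 and 415 CPM in WT_CRE (log2 fold change -2.27 ± 0.40, adjusted p = 0.0234). That call was lost without WT_CRE replicate 1 or 2 (adjusted p = 0.103 and 0.0626), without CKO_CRE replicate 3 (0.0849) and when only the 2 groups were fitted (0.222). Without CKO_CRE replicate 2, 13 of the 20 were lower and 1 higher in CKO_CRE, against 12.7% and 15.8% of all tested genes. Chil4 was at -1.84 (adjusted p = 0.00315) and Arg1 at -2.81 (0.000146). DESeq2 called 7 lower, against 1.72% of all tested genes. Limma-voom called 15 lower and 1 higher, against 20.8% and 23%.

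The median log2 fold change of the targets between genotypes under CRE was -0.70. Muc5ac, the inducible airway mucin of secretory cells, was chosen here after its values were seen. It averaged 134 ± 27.4 CPM in CKO_CRE and 67.2 ± 1.95 CPM in WT_CRE (SD, n = 3 each), a log2 fold change of 0.99 ± 0.30 that was not called (adjusted p = 0.134). The 2 targets not called in CKO were Cd209a, a lectin of dendritic cells, and Postn, a matrix protein at -0.30 on the log2 scale.

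**Figure D5:**
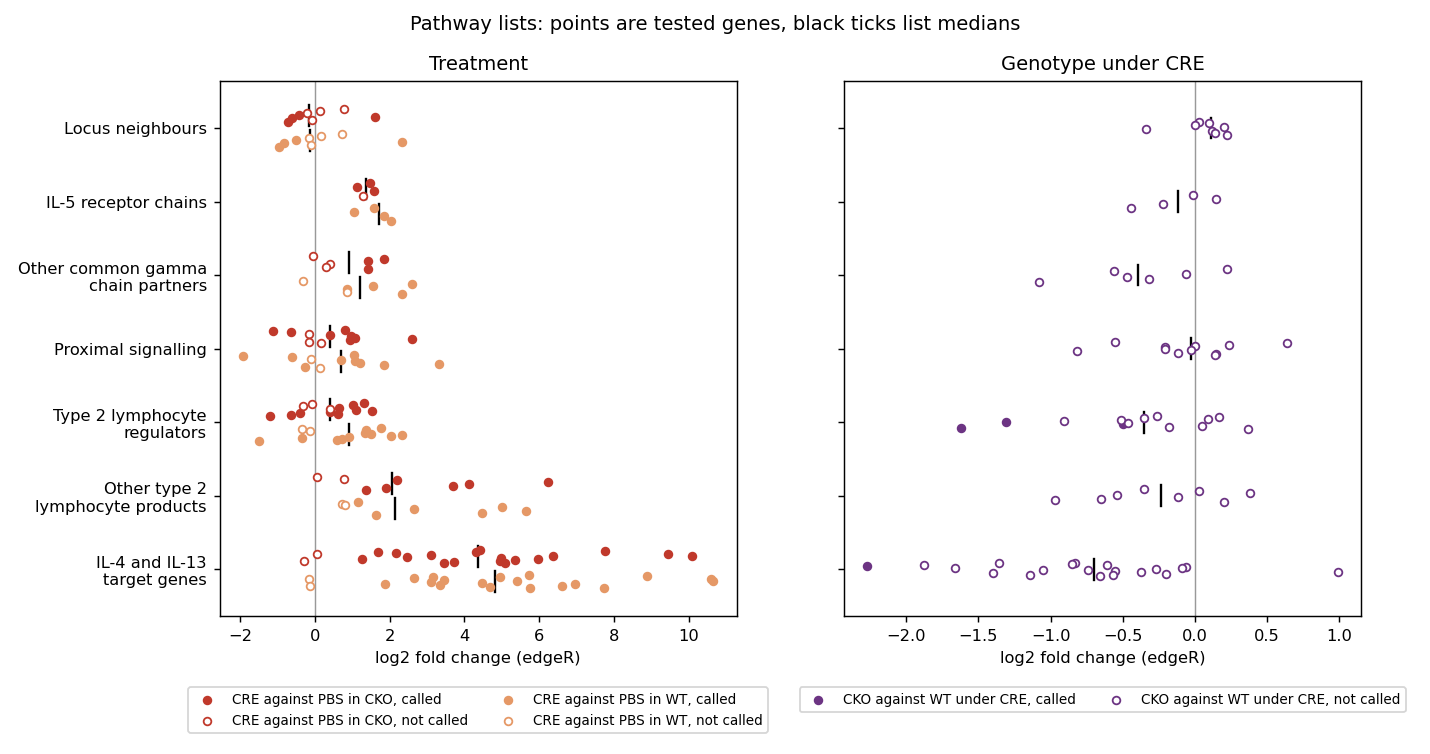
Log2 fold changes (x axis, edgeR) of the tested genes of 7 pathway lists, for CRE against PBS in CKO and in WT (left) and for CKO against WT under CRE (right), with filled points for an adjusted p below 0.05 and black ticks for list medians. On the right, 3 regulators and 1 target gene are filled, all below 0.

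The genes with the most similar course over the 12 libraries were found by Pearson correlation of log2 CPM with 14777 tested genes, as a description only, since all share the libraries and the CRE effect. For Il13 they were Cd163 (r = 0.993), a scavenger receptor of macrophages, Cfi (0.991), a complement regulator, and Aqp9 (0.99), a glycerol channel. Cd163 averaged 59.1 ± 3.72 CPM in CKO_CRE, 147 ± 6.01 CPM in WT_CRE, 15.2 ± 3.35 CPM in CKO_PBS and 17.9 ± 2.41 CPM in WT_PBS (SD, n = 3 each), the same order of groups as Il13 under CRE. For Il13ra2 they were Tmem26 (r = 0.995), Slc16a6 (0.991) and Glipr2 (0.991), with Tmem26 at 16.5 ± 6.87 CPM in CKO_CRE and 40.4 ± 4.51 CPM in WT_CRE.

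For Il4ra they were Mapk13 (r = 0.988), a stress-activated kinase, Txnrd1 (0.982) and Clip4 (0.981), and for Il2rg the immunoproteasome subunit Psmb10 (0.991), Atp6v1d (0.99) and Psmc5 (0.989). For Il5 they were Duoxa1 (0.974), Creb3l1 (0.965) and Phgdh (0.961), which has a near-identical copy and is uncertain. Il4 and Il13ra1, which changed least, had no close match, the highest being BC003965 for Il4 (0.875) and Ptges2 for Il13ra1 (0.857).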

How the data were processed

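The authors deposited a table of read counts per Ensembl gene for 12 mouse lung libraries. Reads were processed with fastp and STAR against mm10, per the submitters' processing notes. The counter, its strand setting and its annotation were not given in the sources used here, so antisense partners are named beside the genes they touch. Identifiers were paired with symbols through GENCODE M21, which matched 54409 of 54532. Of these identifiers, 22229 had no count in any library.

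From the counts, edgeR 4.0.16 (R 4.3.3) was run with TMM scaling, its filter on low counts and a quasi-likelihood F test over all 4 groups. The biological coefficient of variation was 17.4%. P-values were adjusted by the Benjamini-Hochberg method over 17473 tested genes, with a threshold of 0.05. Within each genotype CRE was set against PBS, within each treatment CKO against WT, and the interaction was tested. Alternatives were DESeq2 1.42.0, limma-voom (limma 3.58.1) with quality weights, other scalings, no filter, a minimum of 2-fold, only the groups compared, a replicate block, sex as a covariate and each library left out. The scripts were tested on simulated data. The members and lists were chosen with earlier results of these data known. Each list names its members with the largest rise (up to 3) and fall (up to 2) among called genes that average 1 CPM or more, and for likeness the 3 genes with the highest correlation, leaving out predicted genes, pseudogenes and antigen receptor segments. Marker sums without their most abundant genes were chosen after their values were seen. Jak3 overlaps Insl3 on the same strand. Near-identical copies were sought with blastn 2.17.0. Counting intervals and floors of 3 counts cover counting error only. Replicate numbers were not taken to pair the libraries. The deviations of same-numbered libraries correlated at -0.0232 to 0.176 and not above 0.1 in every pair of any comparison. With 3 libraries a group, such values cannot exclude pairing, and the labels do not state it.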

Additional observations from a re-analysis of the deposited data

Results flagged for a closer look

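Rbpj, the nuclear effector of Notch signalling and a listed regulator of the cytokine genes, differed between genotypes in its response to CRE. It fell to 43.7 ± 3.01 CPM in CKO_CRE, against 67.9 ± 9.32 CPM in CKO_PBS, and rose to 135 ± 6.42 CPM in WT_CRE, against 89.6 ± 1.58 CPM in WT_PBS (SD, n = 3 each). The difference of the 2 responses was -1.22 ± 0.14 on the log2 scale (edgeR adjusted p = 0.0244). That call was lost with a replicate block (0.0598) and without WT_PBS replicate 1, 2 or 3 (0.132, 0.161 and 0.0907), CKO_PBS replicate 1 or 2 (0.0682 and 0.0736), WT_CRE replicate 1 or 3 (0.077 and 0.09) or CKO_CRE replicate 3 (0.0539), always below 0 at -1.32 to -1.11. The near-identical pseudogene Rbpj-ps3 held 141 to 184 counts in CKO_CRE, 2 to 10 in WT_CRE, 8 to 91 in CKO_PBS and 9 to 11 in WT_PBS. Its part in the Rbpj counts was not tested.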

How the results depend on the processing

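No called result of the 7 members changed sign under any alternative. The count of members called for CRE against PBS in CKO, 5 as reported, was 3 at a minimum of 2-fold, with limma-voom and with only the groups compared, and 4 to 5 with 1 library left out. In WT it was 6 as reported and 5 to 6 with 1 library left out. For CKO against WT under CRE, 1 as reported, it was 2 with DESeq2, 2 with no filter on low counts, 6 with limma-voom, 0 with only the groups compared and 0 to 4 with 1 library left out. For the difference of the CRE responses, 0 as reported, it was 1 with limma-voom and 0 to 1 with 1 library left out. Limma-voom called Il4 (-1.38), Il5 (-2.44), Il4ra (-0.70), Il13ra2 (-2.61) and Il2rg (-0.33) lower in CKO_CRE beside Il13, where 20.8% of all tested genes were lower. The replicate block is a description only, since the labels do not say that the numbers pair the libraries. With it, the counts were 5 in WT, where Il4 lost its call (adjusted p = 0.0507), 5 in CKO, 1 under CRE, 0 under PBS and 0 for the difference. Over all tested genes, CKO against WT under CRE called 160 genes as reported, 29 with only the groups compared, 5112 without CKO_CRE replicate 2 and 7645 with limma-voom, CKO against WT under PBS 19, with 12 to 146, and the difference of responses 8, with 0 under the replicate block, 2660 without CKO_CRE replicate 2 and 4371 with limma-voom. CRE against PBS in CKO called 6830, with 3812 when only the groups compared were fitted. The cause of these differences was not tested. The within-library ratios kept their direction, the lengths of the longest coding transcripts, an alternative chosen after seeing the data, included. The PBS libraries' few reads limit the precision for Il5, Il13 and Il13ra2.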
